A study of Mus musculus with 2 samples.

Results

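The genes described here build the muscle acetylcholine receptor and the agrin-MuSK pathway that gathers it under the motor nerve ending. They are the receptor subunit genes Chrna1, Chrnb1, Chrnd, Chrne and Chrng, and Agrn, Lrp4, Musk, Dok7 and Rapsn. Members were the genes whose symbol in the platform's probe annotation equals one of these names, and all 10 were found, with 11 probes, among 19321 named genes and 23473 probes on the array. Gene expression was measured in the gastrocnemius, a calf muscle, of female mice aged 10 weeks. The depleted group is 1 Pdgfra-CreER:R26-DTA mouse and the control group 1 wild type:R26-DTA littermate. Both carried R26-DTA, the diphtheria toxin A allele at the Rosa26 locus, and both received tamoxifen into the peritoneum from 9 weeks of age on 5 days, with muscle frozen 2 days after the last dose. CreER under the Pdgfra promoter was in the depleted mouse only, so toxin expression is limited to cells in which that promoter is active, and an effect of CreER itself cannot be told apart from depletion. The study asked which genes are altered in muscle depleted of PDGFRα-positive mesenchymal progenitors. With 1 array per group there is no spread between animals and no test, every difference may be one between 2 mice, and array and group cannot be told apart. On these arrays the adult receptor subunit Chrne was lower in depleted muscle, by 1.35-fold in the main setting and 1.56-fold in the authors' deposited intensities. The MuSK activator Dok7 was 1.14-fold lower in the main setting and 1.90-fold lower in the deposited intensities, and higher with the local background subtracted (log2 ratio 0.20). The other 8 members, the fetal subunit Chrng among them, had deposited ratios within 2 SD of the error between spots. Chrne and Dok7 lay below 0 by more than that error, as did 14.4% of all genes.

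The neuromuscular junction is the synapse at which a motor neuron releases acetylcholine onto a muscle fibre. The receptor is a pentamer of homologous subunits that forms a cation channel. Fetal and denervated fibres use the gamma subunit, encoded by Chrng, and adult innervated fibres replace it with the epsilon subunit, encoded by Chrne. Agrin from the nerve binds LRP4 on the fibre, LRP4 activates the kinase MuSK, DOK7 in the cytoplasm sustains that activity, and rapsyn, encoded by Rapsn, anchors the receptors in clusters. The few nuclei beneath the synapse transcribe many of these genes, so a whole muscle dilutes their RNA with that of the rest of the fibre.

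Transcription of the receptor subunits is known to depend on E-boxes, which bind the myogenic factors, and synaptic transcription of Chrne on an N-box, which binds GABP. The upstream sequence is shown for the 4 subunit genes whose promoters were matched, because Chrne is the member that differed most in the main setting and Chrng is the subunit it replaces. RefSeq promoter sequences of build GRCm38.p6 were matched for 7 of the 10 members, in 9 windows. The 160 bases before the annotated start are printed 5′ to 3′, with capitals marking each E-box (CANNTG) and N-box (CCGGAA, searched on both strands):
Chrne, chr11:70619195-70619354, minus strand: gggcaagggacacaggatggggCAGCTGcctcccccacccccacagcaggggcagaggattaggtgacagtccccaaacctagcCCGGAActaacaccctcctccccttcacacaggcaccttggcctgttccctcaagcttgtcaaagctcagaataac
Chrng, chr1:87205651-87205810, plus strand: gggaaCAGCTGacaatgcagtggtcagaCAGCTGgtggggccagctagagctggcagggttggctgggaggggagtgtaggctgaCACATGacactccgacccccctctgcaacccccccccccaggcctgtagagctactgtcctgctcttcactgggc
Chrna1, chr2:73580339-73580498, minus strand: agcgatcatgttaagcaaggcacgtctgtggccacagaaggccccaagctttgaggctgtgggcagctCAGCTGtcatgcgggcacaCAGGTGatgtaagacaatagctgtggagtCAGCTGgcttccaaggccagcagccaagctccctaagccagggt
Chrnb1, chr11:69795938-69796097, minus strand: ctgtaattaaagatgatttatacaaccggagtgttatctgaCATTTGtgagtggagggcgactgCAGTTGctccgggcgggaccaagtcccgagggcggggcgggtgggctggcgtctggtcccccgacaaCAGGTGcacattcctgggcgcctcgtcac

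Over the full 250 bases upstream, the Chrne window held 1 N-box, which began 76 bases before the start, and 1 E-box, which began 138 bases before it. No other member's window held CCGGAA on either strand. Chrna1, Chrnb1, Chrng and Musk had 3 E-boxes each, of which 2 in Chrna1, 2 in Chrng and 1 in Musk read CAGCTG. Of the 2 windows of Dok7 and the 2 of Agrn, 1 each held an E-box. Among all 32851 promoter windows, 66.2% held CANNTG, 13.0% held CAGCTG and 12.0% held CCGGAA, so every motif is common, and CAGCTG is also counted under CANNTG. A match describes the letters only.

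On the array the members were dim but measurable. The scanner's spot intensity is the median pixel of a spot in the red channel, which reads Cy5, on a linear scale. The 2736 blank spots averaged 36.3 ± 0.58 (SD over spots) in control, and 37.0 ± 0.78 on the array of depleted muscle. The 10 members, each by its brightest probe, ran from 40.3 to 158.5 on the control array and from 43.3 to 178.5 on the depleted array, and all 10 exceeded the blanks by at least 6.93 of their SD. The brightest kind of negative control spot averaged 38.5 ± 0.64 in control and 40.4 ± 0.89 in depleted muscle. The other kinds averaged 37.0 to 37.1 and 37.9 to 38.1. Chrnd, the dimmest member at 40.3 and 43.3, was closer to the brightest kind than to the blanks. Between the arrays, 8 of the 10 members' spots were brighter in depleted muscle and 2 were dimmer, those of Chrne and Dok7. Over all probes 90.9% of spots were brighter and 9.10% dimmer, a shift that normalization removes.

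Ratios are depleted over control throughout. The main setting, limma's normexp background correction with an offset of 50 and then quantile normalization of the log2 values, draws the ratios of dim genes toward 0. The authors' deposited intensities, which lie on a straight line against the spots after subtraction of about the blank level, do not have this compression and are given beside it. An alternative setting subtracts the scanner's local background column. At the median probe that column made up 78.8% of the spot in control and 80.8% in depleted muscle. Ratios in that setting thus rest on a small part of most spots. A gene was counted as lower or higher where the brighter array exceeded the other by at least 25%, or 0.32 on the log2 scale. By this threshold, in the main setting, 1 of 10 members was lower, against 5.52% of the 18498 genes compared, and 0 were higher, against 5.92%. Scaling to the median instead put 1.99% of genes lower and 13.9% higher, with 0 of 10 members past the threshold in either direction. In the deposited values 2 of 10 were lower past the threshold, against 19.8% of 17920 genes, and 0 were higher, against 20.5%. By sign alone 6 of 10 were lower on either scale, against 52.4% of genes in the main setting and 50.7% in the deposited values. The shares of members lie near these background shares, so the counts are not a result about the members. The median log2 ratio of the 10 members was -0.03 in the main setting and -0.11 in the deposited values, beside -0.004 and -0.011 over all genes.

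**Figure D1:**
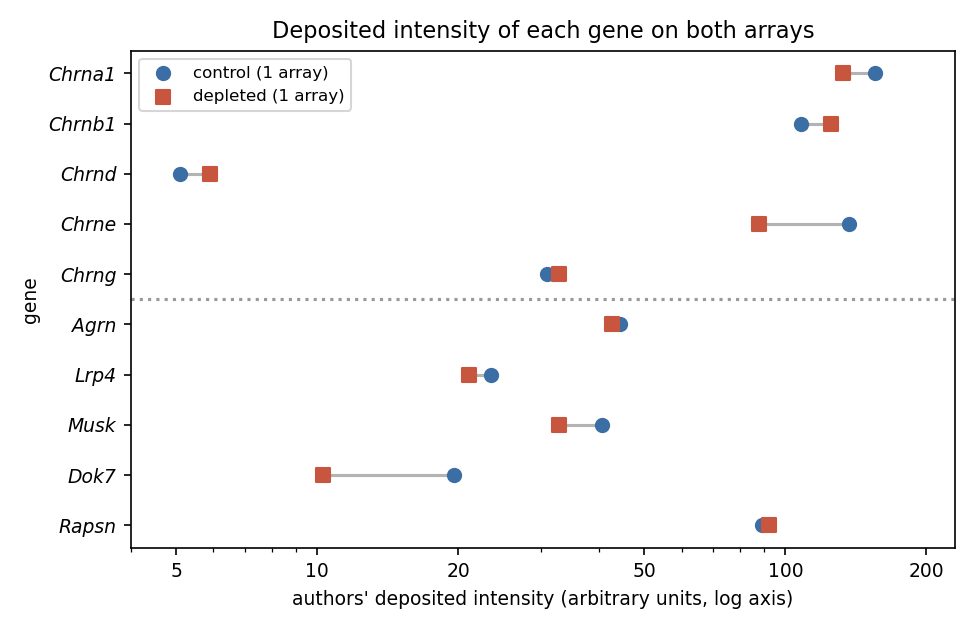
Authors' deposited intensity (arbitrary units, log axis) of each member on the control array (circles) and the depleted array (squares), 1 array each, with subunits above the dotted line and the agrin-MuSK pathway below it. The widest gaps are those of Chrne (136.9 and 88.0) and Dok7 (19.6 and 10.3), and levels of different genes come from different probes and cannot be compared.

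The error of a spot was taken from control spots repeated on each array. The log2 ratio of 24 matched spots had an SD of 0.14 for one positive control and 0.15 for the other. Before normalization the mean log2 ratios of these controls were 1.09 and 0.80, against 0.21 over all probes. What the controls contain is not given in the sources used here, and their part in where the ratios are centred was not tested. The larger SD was combined with the SD of the blanks to give each deposited ratio an error of ± 2 SD, which covers differences between spots and not differences between mice. Of the 10 members, 2 had an interval wholly below 0, Chrne and Dok7, 0 had one wholly above 0, and 8 had one that included 0. Over 17920 genes, 14.4% had an interval wholly below 0 and 15.4% one wholly above 0, so a share of 2 in 10 members lies near the background and is not a result about them.

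Chrne, the adult epsilon subunit (probe M200002071), read 143.8 at the spot in control and 130.8 in depleted muscle. Its deposited intensities were 136.9 and 88.0. Depleted muscle was lower on both scales, although most spots of that array were brighter. The log2 ratio was -0.43, or 1.35-fold lower, in the main setting, and the deposited values were 1.56-fold lower at a log2 ratio of -0.64, with an interval from -0.94 to -0.34. The central 95% of all genes ran from -0.48 to 0.52 in the main setting and from -0.92 to 1.04 in the deposited values, and Chrne lay inside both ranges. It was lower in all 11 settings tried, some of which repeat the main ratio by construction, from -1.30 to -0.25. Scaling to the median, which gave -0.25, left it short of the threshold.

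Chrng, the fetal gamma subunit (probe M200001064), had deposited intensities of 31.0 in control and 32.9 in depleted muscle. Its levels differed little, with a log2 ratio of 0.03 in the main setting and 0.09 in the deposited values (interval from -0.23 to 0.40). The ratios of the adult and the fetal subunit thus had opposite signs, but whether they differ could not be tested with 1 array per group. Subtraction of the local background column put Chrng at -0.44 and Chrne at -1.30, both lower.

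Chrna1 encodes the alpha subunit, which carries most of the acetylcholine binding site and is present in fetal and adult receptors. Its brighter probe (M200001823) had deposited intensities of 155.6 in control and 132.8 in depleted muscle, a log2 ratio of -0.17 in the main setting and -0.23 in the deposited values (interval from -0.53 to 0.07). Its dimmer probe (M400007027) read 5.0 and 5.2, with a ratio of 0.005 in the main setting and a deposited interval from -0.61 to 0.72. The probes differed in sign, and neither deposited interval excluded 0. For scale, the main-setting ratios of 1035 genes with 2 probes above background differed between their probes by a median of 0.097. Scaling to the median moved Chrna1 to 0.03.

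Chrnb1, the beta subunit (probe M200015722), had the highest main-setting ratio of the members. Its deposited intensities were 108.0 in control and 125.4 in depleted muscle, and its log2 ratio was 0.14 in the main setting and 0.22 in the deposited values (interval from -0.09 to 0.52). It was higher in 10 of 11 settings, and subtraction of the local background column turned it to -2.65. In depleted muscle that column read 164.1 beside a spot of 170.6, or 96.2% of the spot, against 79.7 beside 121.1, or 65.8%, in control. The part of this column in the ratio was not tested.

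Chrnd, the delta subunit (probe M300005003), was the dimmest member, with spots of 40.3 and 43.3 and deposited intensities of 5.1 and 5.9. The main-setting log2 ratio was 0.02, and the deposited ratio of 0.21 had the widest interval of the 10, from -0.41 to 0.83, so neither a difference past the threshold in either direction nor equality could be told at this signal. Scaling to the median put it at -0.06. Over the 5 subunits the median ratio was 0.02 in the main setting and 0.09 in the deposited values, with 2 lower and 3 higher in both.

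**Figure D2:**
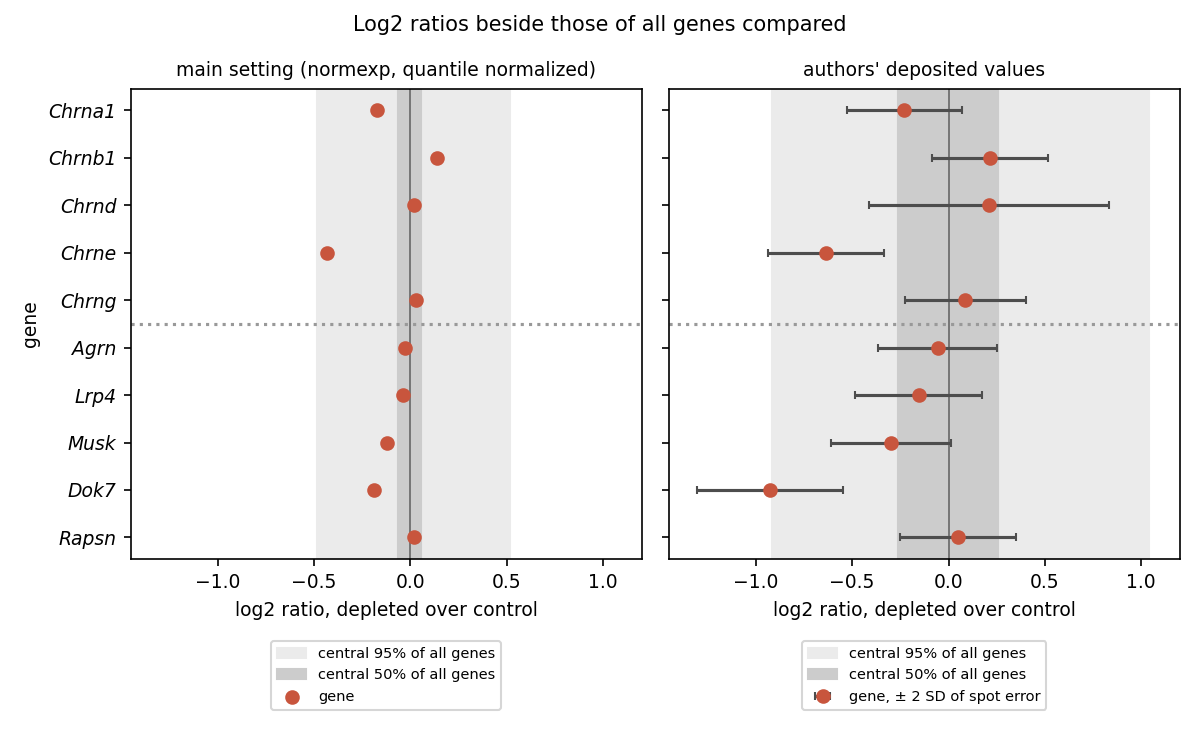
Log2 ratio, depleted over control, of each member (points) in the main setting (left) and in the authors' deposited values (right), over bands holding the central 95% and the central 50% of all genes compared. Bars on the right are ± 2 SD of the spot error. Chrne (-0.64) and Dok7 (-0.93) have bars that end below 0, and the other 8 bars include 0.

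Among the pathway genes, Dok7, the cytoplasmic activator of MuSK (probe M300015715), differed most. Its spot was 51.6 in control and 47.9 in depleted muscle, and the deposited intensities were 19.6 and 10.3. The deposited values were thus 1.90-fold lower, with a log2 ratio of -0.93 and an interval from -1.31 to -0.55, while the main-setting ratio of this dim gene was -0.19. Dok7 (-0.928) lay just past the lower bound of the central 95% of genes in the deposited values (-0.918), a range over genes of every brightness. In the main setting it lay inside that range. It was lower in 10 of 11 settings and at 0.20 with the local background column subtracted.

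Musk, the receptor kinase (probe M200003419), had deposited intensities of 40.5 in control and 32.9 in depleted muscle, with log2 ratios of -0.12 in the main setting and -0.30 in the deposited values (interval from -0.61 to 0.01). Lrp4, the agrin receptor (probe M200005083), had deposited intensities of 23.5 and 21.1 and ratios of -0.04 and -0.16 (interval from -0.48 to 0.17). Both were lower in all 11 settings, Musk from -0.30 to -0.06 and Lrp4 from -0.36 to -0.03, by amounts within the spot error of the deposited values.

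Agrn, which encodes agrin and is made by fibres and other cells as well as by nerve (probe M300013424), had deposited intensities of 44.3 in control and 42.6 in depleted muscle. Its ratios were -0.03 and -0.06 (deposited interval from -0.36 to 0.25), while scaling to the median gave 0.05 and subtraction of the local background 0.02. Which splice form the probe reads is not given in the sources used here. Rapsn, the receptor's anchor (probe M200000478), had deposited intensities of 89.1 and 92.3 and ratios of 0.02 and 0.05 (interval from -0.25 to 0.35). It was higher in all 11 settings, at 1.23 with the local background subtracted and at most 0.18 in the others. Over the 5 pathway genes the median was -0.04 in the main setting and -0.16 in the deposited values, with 4 lower and 1 higher in both.

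**Figure D3:**
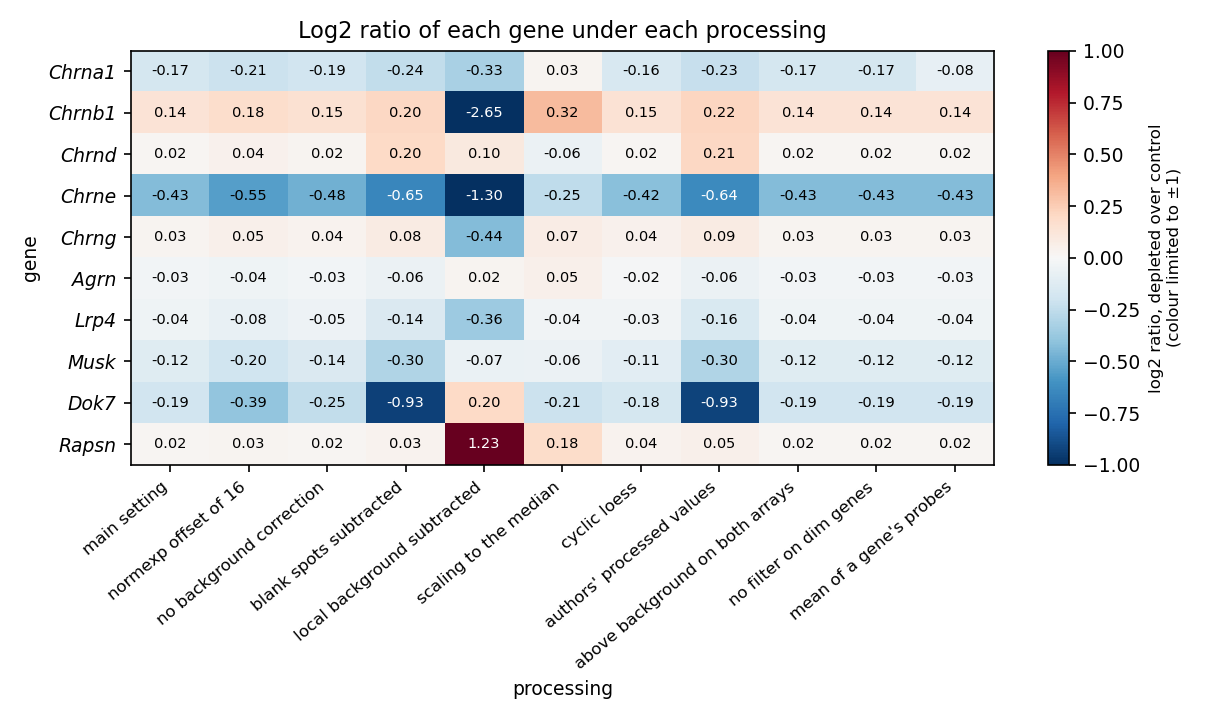
Log2 ratio, depleted over control, of each member (rows) under the main setting and 10 alternatives (columns), with the value in each cell and colour limited to ±1. Chrne, Lrp4 and Musk are below 0 and Rapsn above 0 in every column, and the column with the local background subtracted departs most from the others.

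Genes that act with the members were listed by role. MuSK signalling partners, the adaptors, GTPases and cytoskeletal proteins that carry its signal to receptor clusters, had 9 of 16 lower and 7 higher, with a median of -0.01. The adaptor Crk, which binds phosphorylated DOK7, was at -0.41 with deposited intensities of 405.7 in control and 295.4 in depleted muscle, and Fnta, a farnesyltransferase subunit, at 0.39 (977.5 and 1334.6). In the main setting they were the partners past the threshold, 1 lower and 1 higher of 16, against 5.52% and 5.92% of all genes. With scaling to the median Crk was at -0.14, and 0 were lower and 4 higher past it. Hsp90b1, an endoplasmic reticulum chaperone, was at 0.25 and Dnaja3, a chaperone that binds MuSK, at -0.20.

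Of 12 genes of the synaptic cleft and basal lamina, 10 were lower and 2 higher. Their median was -0.13, and 3 of 12 were lower past the threshold, against 5.52% of all genes. Scaling to the median left 0 past it (Bgn -0.05, Nid2 -0.20, Ache -0.30) and cyclic loess left 1, Bgn. Ache, the acetylcholinesterase that ends transmission, had deposited intensities of 40.6 in control and 20.6 in depleted muscle, and ratios of -0.33 in the main setting and -0.98 in the deposited values. The proteoglycan Bgn (-0.34) and the nidogen Nid2 (-0.33) were the others past it, and the collagen chain Col4a4 was at -0.30. In the deposited values the list's median was -0.37, with 8 of 12 lower past the threshold, against 19.8% of all genes. Several of these matrix genes are also made by interstitial cells, whose markers were lower on the same array (past the threshold for 13 of 15), and their part in the list's median was not tested.

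The postsynaptic scaffold and its channels were split, with 5 lower and 5 higher of 10 and a median of -0.01. Dtna, which encodes alpha-dystrobrevin, was at -0.79, with deposited intensities of 325.1 in control and 165.6 in depleted muscle. Prkcq, a protein kinase C, was at -0.68 (362.6 and 207.9) and the cytolinker Plec at -0.45, while the ankyrin Ank3 was at 0.58 (553.5 and 879.5). Of these 4, Dtna and Prkcq were at least 1.5-fold lower, which 1.52% of all genes were. Plec fell short of the threshold with scaling to the median (-0.26) and with the local background subtracted (-0.23), and the mean of a gene's probes put Prkcq (-0.318) and Ank3 (0.27) short of it.

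The neuregulin receptors and synaptic transcription factors had 5 of 8 lower, a median of -0.10 and 0 past the threshold. Gabpa, the DNA-binding subunit of GABP, was at -0.30 (deposited 123.6 in control and 90.8 in depleted muscle), the receptor kinase Erbb4 at -0.27, the ETS factor Etv5 at -0.25 and Gabpb2 at -0.16. Genes known from nuclei beneath the synapse had 5 of 8 lower and a median of -0.01. Ufsp1 was at -0.45 (149.8 and 95.5), but at -0.26 with scaling to the median. It was the 1 of 8 lower past the threshold in the main setting, against 5.52% of all genes. Gramd1b, Pdzrn4 and Phldb2 were at 0.12, 0.05 and -0.05. With the blank spots subtracted Gramd1b (0.92) and Pdzrn4 (0.37) were higher past the threshold, 2 of 8, against 19.3% of all genes. Both were dim, with control spots of 40.8 and 42.8.

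Genes known to respond to denervation, most of them by rising, had 8 of 12 higher and a median of 0.20, with 5 of 12 higher past the threshold, against 5.92% of all genes. Dach2, a repressor of Myog that is known to fall, was in this list at -0.02. The ubiquitin ligases Fbxo32 and Trim63 were at 3.19 and 2.71, the cell cycle inhibitor Cdkn1a at 1.91 and Gadd45a at 1.41, and these 4 were at least 2-fold higher, which 0.492% of all genes were. Other atrophy states raise these genes too. This list, like the others, was chosen with earlier results of these data known, so its counts beside the shares of all genes are not a test. Chosen after their values were seen, Myog, the myogenic factor that drives receptor genes in denervated fibres, was at 0.20 (49.1 in control and 66.0 in depleted muscle), and Runx1 was at 0.15. The embryonic and perinatal myosins Myh3 and Myh8 were at 0.20 and -0.30, and Ankrd1, the fifth gene higher past the threshold, at 0.43. The potassium channel Kcnn3 was at -0.11 and the histone deacetylase Hdac4 at -0.28. Among the members, Chrna1, Chrnb1, Chrnd, Chrng and Musk are also known to increase after denervation, and their ratios were -0.17, 0.14, 0.02, 0.03 and -0.12.

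Factors that bind or modulate E-boxes had 7 of 15 lower and a median of 0.03. The MEF2 factors Mef2c and Mef2d, which partner the myogenic factors, were at -0.88 (1266.8 and 677.7) and -0.45, Myod1, a myogenic factor, at -0.53 (139.7 and 80.5), and the inhibitor Id1 at -0.50. Those were the 4 of 15 lower past the threshold, against 5.52% of all genes. Scaling to the median left 2 of them, Mef2c and Myod1, with Id1 at -0.23 and Mef2d at -0.22, and the mean of a gene's probes put Mef2d at -0.24. The 2 higher past the threshold, named here after their values were seen, were Myf6 (0.42), the main myogenic factor of adult fibres, and Id2 (0.32).

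**Figure D4:**
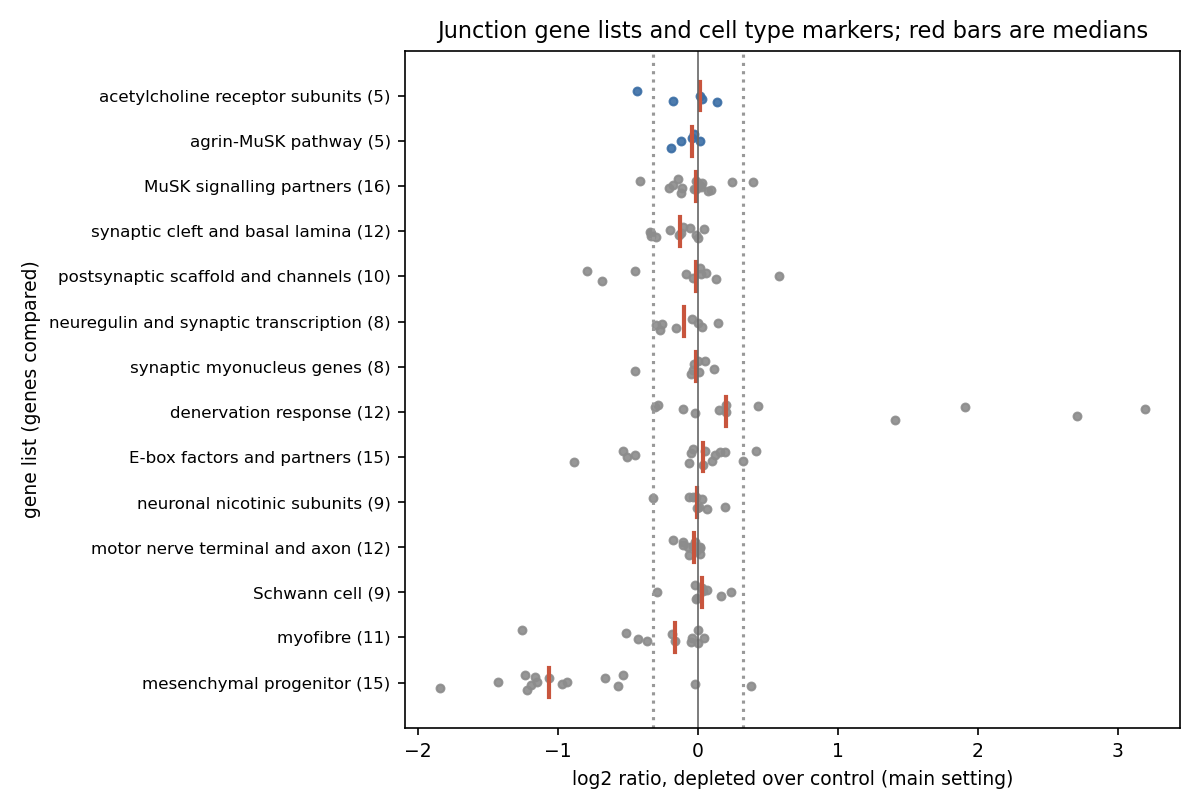
Main-setting log2 ratio, depleted over control, of every gene compared in the members' lists (blue), related lists and cell type markers (grey), with the number of genes in brackets, red bars at the medians and dotted lines at the threshold of 0.32 in either direction. Medians of the junction lists lie between -0.13 and 0.02, the denervation list has 4 genes beyond 1 and mesenchymal progenitor markers have a median of -1.06.

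Cell type markers were read beside the members. Pdgfra, which marks the targeted cells, had deposited intensities of 273.1 in control and 116.6 in depleted muscle, and mesenchymal progenitor markers were lower in 14 of 15 with a median of -1.06, led by Lum (-1.84), Col1a2 (-1.42) and Dpt (-1.23). In whole muscle, fewer cells of a type and less RNA per cell cannot be told apart. Myofibre markers, among them Acta1, were bright on both arrays, as the tissue label requires. Their median was -0.16 in the main setting and -0.48 in the deposited values, where all 11 were lower, led in the main setting by Pvalb (-1.25), Myh7 (-0.51) and Myh1 (-0.43). The deposited values scale the spots by 1.27 in control and 0.938 in depleted muscle. At the spots, Ckm, Myh2, Tnnt3, Actn3 and Ttn were brighter in depleted muscle and the other myofibre markers dimmer. In the main setting 4 of 11 were lower past the threshold, against 5.52% of all genes. Scaling to the median left 3, against 1.99%. The deposited values put 9 past it, against 19.8%, and cyclic loess 11, against 5.55%. The members are transcribed largely in fibres, and the part of the myofibre shift in the deposited ratio of Chrne (-0.64) was not tested. Muscle stem cell markers were higher in 7 of 8, against 47.4% of all genes, with a median of 0.10 (Cdh15 0.58, Sdc4 0.44, Chodl 0.15). Higher past the threshold were 2 of 8, against 5.92%. Pax7, Calcr and Megf10, named after their values were seen, were at -0.001, 0.03 and 0.03.

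Markers of the nerve were dim. Of 13 motor terminal and axon genes, 12 were above background and Syt2 was not, the summed deposited intensity was 171.0 in control and 140.0 in depleted muscle, and Chat, the acetylcholine-synthesizing enzyme, was at -0.17 with Sv2a and Prph both at -0.10. The median was -0.03 in the main setting, which compresses such dim genes, with 0 past the threshold. In the deposited values it was -0.31, with 9 of 12 lower and 6 of 12 lower past the threshold, against 19.8% of all genes, a share over genes of every brightness. Of these, Slc18a3, Nefl (3.2 in control and 1.8 in depleted muscle) and Nefm (2.5 and 2.0) had intervals of the spot error that included 0. Those of Sv2a, Prph and Mnx1 lay below 0. The depleted spots of Mnx1 (41.1), Nefl (38.9) and Nefm (39.0) were near or below the brightest kind of negative control spot (40.4 ± 0.89 in depleted muscle). Schwann cell markers had 4 of 9 lower and a median of 0.03, with S100b at -0.29, Egr2 at 0.23 and Mbp at 0.17, and summed intensities of 547.5 and 562.1. Other cell types moved on the same arrays. Macrophage markers were higher in 10 of 10 with a median of 0.51 (Lyz2 1.22, C1qc 0.90, C1qb 0.84). Endothelial markers were higher in 6 of 6 with a median of 0.11 (Cldn5 0.83, Pecam1 0.40, Kdr 0.14). By sign 47.4% of all genes were higher. Past the threshold were 5 of 10 and 2 of 6, against 5.92%. Erythroid genes were lower past it in 5 of 5, against 5.52%, with a median of -2.47 (Hbb-bt -3.30, Hbb-b2 -2.51, Hbb-bs -2.47, whose probes can share signal). The part of these cell types in the members' ratios was not tested.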

How the data were processed

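The scanner files hold deposited spot intensities (median pixel, red channel), combined from 3 scan gains without subtraction of background, per the file headers. RNA was amplified and labelled with Cy5, per the labels' protocols. The authors also deposited processed intensities. Against the spots these form a line on each array, with slope 1.27 in control and 0.938 in depleted muscle and a median of 25.0 on both, which fixes scale and direction. The sources used here do not name the scanner.

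Spots were corrected with normexp (limma 3.58.1 in R 4.3.3, offset 50), set to log2 and quantile-normalized over 23473 probes. A probe was above background where its spot exceeded the blanks' mean by 2 SD. Genes with 1 or both arrays above background entered, by their brightest probe. A value below background was set to the lowest above it. Names came from the platform's annotation (20690 probes with a gene, 2783 without). The steps were tested on simulated data. Python 3.11.15 (numpy 2.4.6, pandas 2.3.3, matplotlib 3.10.9) made tables and plots.

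With 1 array per group no test was made, and precision is limited by the number of arrays. The members and the 18 lists were chosen with earlier results of these data known. All members were named. Of each other gene list up to 4 genes, and of each cell type list up to 3, were named by size of ratio, if both arrays were above background. With 2 arrays no gene was named for a pattern like a member's.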

Additional observations from a re-analysis of the deposited data

Results flagged for a closer look

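The local background column of the scanner files, which no comparison in the main setting uses, was 2.06-fold higher at the Chrnb1 spot on the depleted array than on the control array. It was singled out because this column, kept apart from the spot values, exceeded the control by at least 1.5-fold, and no other probe of the members did. The column is not independent of the spots. Over all probes its Spearman correlation with them was 0.94 in control and 0.97 in depleted muscle. The Chrnb1 spot was itself brighter in depleted muscle. At that spot the column made up 96.2% of the spot on the depleted array, a share reached by 2.65% of all probes. Over all 23473 probes, the column was at least 1.5-fold higher for 19.3%, and its median was 1.10-fold higher.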

How the results depend on the processing

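No paired analysis was possible because there was only 1 array per group. All 10 alternatives and the 2 other thresholds were run. Of 100 values of members under the alternatives, 91 stayed on their side of the 25% threshold, and of 190 list medians 177 did. Some of the 100 repeat the main ratio by construction, because all 10 members were above background on both arrays. These are the values with both arrays required above background, with no filter on dim genes and, for members with 1 probe, with the mean of a gene's probes. Counts of settings given for a member include them. The count of members lower past the threshold was 1 in the main setting, against 5.52% of all genes. It was 2 with an offset of 16 (8.28%), with the blank spots subtracted (19.9%) and in the authors' processed values (19.8%). With the local background subtracted it was 5 (29.4%), and with scaling to the median 0 (1.99%). It was 0 at 1.5-fold (1.52%) and at 2-fold. The count higher past the 25% threshold was 0 in the main setting, against 5.92% of all genes, and 1 with the local background subtracted (33.0%). Higher thresholds lower the counts by construction, and for the other changes below the cause was not tested.

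Chrne came under the threshold with scaling to the median (-0.25). Dok7 passed it with an offset of 16 (-0.39), with the blanks subtracted (-0.93) and in the authors' values (-0.93). With the local background subtracted, Chrna1 (-0.33), Chrnb1 (-2.65), Chrng (-0.44), Lrp4 (-0.36) and Rapsn (1.23) passed it, as did the medians of receptor subunits (-0.44), synaptic cleft genes (-0.46), neuregulin and transcription genes (-0.89) and denervation genes (0.57). Blank subtraction took the medians of synaptic cleft (-0.38), denervation (0.46), motor terminal (-0.36) and endothelial genes (0.34) past it, the authors' values those of synaptic cleft (-0.37), denervation (0.49), myofibre (-0.48) and endothelial genes (0.35), and cyclic loess that of myofibre genes (-0.53). Of 570 values of other named genes, 492 stayed on their side of the threshold, 56 came past it, and 16 fell short of it, of which 9 with scaling to the median. Another 6, past it in the main setting, reversed in sign, all with the local background subtracted: Id1 (0.60), Pvalb (8.35), Sdc4 (-0.52), Lyz2 (-7.36), Cldn5 (-0.16) and Pecam1 (-1.32). Sign changes of ratios short of the threshold in the main setting were not counted as reversed. Chrnb1, Chrng and Dok7 changed sign in this way with the local background subtracted. Signal over background limits Chrnd most, at 6.93 SD of the blanks on the control array.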

Other observations

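Nicotinic subunits best known from neurons were not part of the members. Of 9 compared, 5 were lower and 4 higher, with a median of -0.004. Chrna2 was the largest difference, at -0.32 with deposited intensities of 115.7 in control and 83.0 in depleted muscle, followed by Chrna9 at 0.20 (19.6 and 30.8), Chrnb4 at 0.07 and Chrnb2 at -0.06. Chrna3, Chrna6 and Chrnb3, named after their values were seen, had deposited intensities of 1.6 to 2.2 on both arrays. Whether the Chrna2 probe shares signal with muscle subunits is not given in the sources used here.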
